A study of Homo sapiens with 8 samples.

Results

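RNA of 10 transcription factor genes that growth factor signalling through ERK is known to induce was followed in NCI-H1581 and NCI-H1703, established lines of non-small cell lung cancer, and in their variants resistant to an FGFR inhibitor. The genes were ETV1, ETV4 and ETV5 of the PEA3 group of ETS factors, EGR1 and EGR3 of the EGR zinc-finger family, and FOS, FOSB, FOSL1, JUN and JUNB, which encode subunits of AP-1. They were given by name, with earlier results of these data known, and are 10 of the 37441 rows of the deposited gene table. All 10 passed the minimum of 10 counts summed over the libraries and so were among the 18203 genes tested. The parental lines, whose growth the inhibitor reduced in the study, were the sensitive variants. The resistant variants NCI-H1581R and NCI-H1703R came from culture of these lines for 4 to 6 months in CPL304110, an inhibitor of FGFR kinases, at concentrations that rose from 50 nM to 2.5 µM for NCI-H1581R and to 5 µM for NCI-H1703R. Each of the 4 variants was grown and harvested as 2 replicates, which gave 8 libraries, and cells were collected 24 h after a change to fresh medium. The sources used here do not state whether that medium held the inhibitor, so an effect of the drug during the last day and a lasting change of the resistant cells cannot be told apart. NCI-H1581 and NCI-H1581R were kept in DMEM/F12 and NCI-H1703 and NCI-H1703R in RPMI 1640, so differences between the lines cannot be told apart from differences between media. Each resistant variant was 1 selected population of 1 line.

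FGF receptors activate the RAS, RAF, MEK and ERK kinase cascade. Active ERK phosphorylates ternary complex factors such as ELK1, which sit with serum response factor (SRF) on CArG boxes, and within minutes the transcription of EGR1 and FOS begins from chromatin that is already open. These genes are called immediate early because no new protein is needed, and their RNAs are short-lived. FOS and JUN proteins pair into AP-1, and FOSL1, also called FRA1, comes up later and stays up while ERK is active. The PEA3 genes are usually held down by the repressor Capicua (CIC), which ERK removes from its octamer sites, and in many tissues ETV4 and ETV5 are the most direct RNA readout of FGF signalling. The promoter of JUN binds JUN, which the stress kinase JNK also phosphorylates, and ATF2, a substrate of the stress kinases JNK and p38.

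Promoters are shown for EGR1, FOS and JUN, the genes whose regulation through SRF, CREB and AP-1 is described best. Each run is the 250 bases before a RefSeq transcription start (GRCh38.p14), read 5′ to 3′ on the strand of the gene. Capitals mark matches to the motifs searched.
EGR1, chr5:138465229-138465478, plus strand: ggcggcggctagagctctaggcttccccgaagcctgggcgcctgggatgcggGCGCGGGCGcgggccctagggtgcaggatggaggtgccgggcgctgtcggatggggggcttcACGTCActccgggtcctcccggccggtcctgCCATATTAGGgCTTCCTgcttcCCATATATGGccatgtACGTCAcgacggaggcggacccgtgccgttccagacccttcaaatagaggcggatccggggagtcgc
FOS, chr14:75278578-75278827, plus strand: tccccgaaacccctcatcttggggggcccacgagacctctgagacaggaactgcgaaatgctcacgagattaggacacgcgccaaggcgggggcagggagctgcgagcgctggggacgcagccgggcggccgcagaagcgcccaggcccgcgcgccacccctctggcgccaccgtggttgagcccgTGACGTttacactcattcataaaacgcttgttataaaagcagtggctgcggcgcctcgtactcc
JUN, chr1:58784048-58784297, minus strand: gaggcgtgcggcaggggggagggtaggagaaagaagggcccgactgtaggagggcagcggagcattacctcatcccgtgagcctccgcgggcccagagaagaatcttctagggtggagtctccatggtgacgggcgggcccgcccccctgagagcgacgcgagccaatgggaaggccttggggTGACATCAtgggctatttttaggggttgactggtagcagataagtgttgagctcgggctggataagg
The window of EGR1 held 2 CArG boxes, from 105 to 96 and from 83 to 74 bases before the start, an EGR site (GCGNGGGCG), 2 matches to the core of the cyclic AMP response element (TGACGT) and 1 PEA3 motif (AGGAAG), the last 3 on the opposite strand. FOS had 1 cyclic AMP response element core, from 64 to 59 bases before the start. Its window held no CArG box, but sites more than 250 bases upstream were not searched for any gene. JUN had the variant AP-1 site known from its own promoter (TGACATCA), from 67 to 60 bases before the start. Both strands were searched, from 250 bases before to 50 after each start. Of 35116 such windows of 27305 genes, 1.29% held a CArG box, 2.61% the JUN-type AP-1 site, 7.98% the cyclic AMP response element core, 9.43% the EGR site, 33.6% the PEA3 motif and 3.77% the CIC octamer. FOSB had a cyclic AMP response element core and a CIC octamer, JUNB a PEA3 motif, and of the 6 starts of ETV1 the third and the fourth, whose windows overlap, shared a PEA3 motif and the sixth had a CIC octamer. The AP-1 site TGANTCA, with N as C or G, was in 4.95% of the windows and in none of these members. The table had no entry for ETV4, ETV5, EGR3 and FOSL1. A match is a description of letters and not a bound site.

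**Figure D1:**
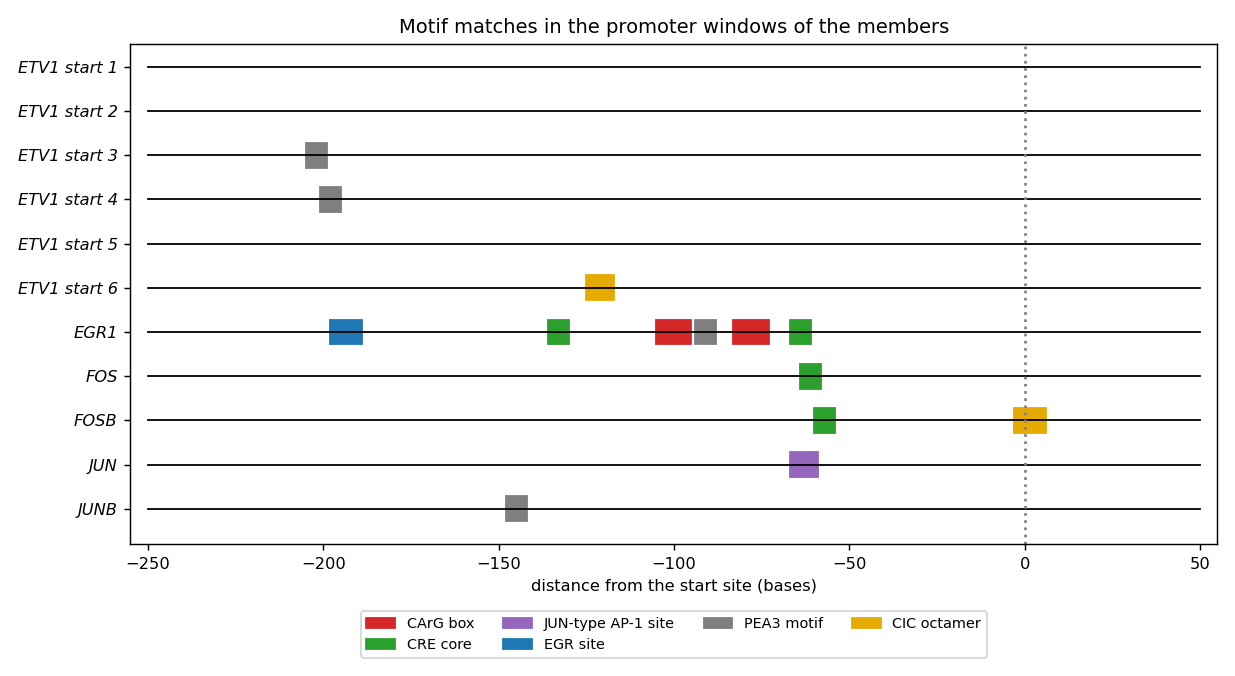
Motif matches in the windows around the RefSeq starts of the 6 members in the table, plotted as distance from the start site in bases, with 1 line per start and 1 box per match. EGR1 carries 6 matches, 2 of them CArG boxes, and FOS, JUN and JUNB carry 1 each.

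In GENCODE v44 on GRCh38, the ETS genes were long and the others short. ETV1 (ENSG00000006468) lies on chromosome 7 from 13891229 to 13991425, ETV4 (ENSG00000175832) on chromosome 17 from 43527844 to 43579620 and ETV5 (ENSG00000244405) on chromosome 3 from 186046314 to 186110318, all on the minus strand. EGR1 (ENSG00000120738) lies on chromosome 5 from 138465479 to 138469303 on the plus strand and EGR3 (ENSG00000179388) on chromosome 8 from 22687659 to 22693480 on the minus strand. FOS (ENSG00000170345) is on chromosome 14 from 75278826 to 75282230 and FOSB (ENSG00000125740) on chromosome 19 from 45467995 to 45475179, both on the plus strand, and FOSL1 (ENSG00000175592) is on chromosome 11 from 65892049 to 65900573 on the minus strand. JUN (ENSG00000177606) is on chromosome 1 from 58776845 to 58784048 on the minus strand and JUNB (ENSG00000171223) on chromosome 19 from 12791486 to 12793315 on the plus strand. The 7 EGR and AP-1 genes spanned 1830 to 8525 bases with 1 to 4 exons in the canonical transcript, and the 3 ETS genes spanned 51777 to 100197 bases with 13 or 14 exons. The median over the 15546 protein-coding genes tested was 33249 bases and 9 exons. Exons of ETV4 shared 68 bases with DHX8, those of JUNB 259 with HOOK2 and those of EGR3 164 with an antisense long non-coding RNA, all on the opposite strand, and ETV5 shared 164 with DGKG on the same strand. Whether the counting used strand is not given in the sources used here, so reads from these stretches could not be assigned with certainty.

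The libraries held from 33800389 to 40031710 counts. Levels are given in CPM (counts scaled to library size with TMM factors over the 8 libraries). A gene with fewer than 3 counts was taken as not shown by a library. This floor was 0.0749 to 0.0888 CPM, scaled to library size without TMM factors. Intervals and this floor cover counting error only. Mitochondrial genes took 1.60% to 6.59% of the counts, and NCI-H1581 stood at 6.59% and 5.36% where its resistant variant stood at 3.25% and 3.29%. Markers of carcinoma epithelium were low against the tissue named in the labels: their 6 genes, KRT8, KRT18, KRT19, KRT7, EPCAM and CDH1, summed to at most 78.4 CPM in any library, while 8 mesenchymal genes summed to between 2670 and 13434 CPM, with VIM the highest in every variant. In NCI-H1703 and NCI-H1703R nearly all of this sum was VIM, which averaged 3675 and 2852 CPM. COL1A2, COL3A1, DCN and LUM averaged at most 3.04 CPM in these 2 variants. CDH2 averaged 49.4 CPM in NCI-H1703 and 1.12 CPM in NCI-H1703R, and COL1A1 averaged 0.976 and 24.1 CPM. FN1 averaged 9.61 CPM in NCI-H1703 and 5.63 CPM in NCI-H1703R. The 4 endothelial genes summed to less than 0.45 CPM in every library. The 6 leukocyte genes summed to between 15.6 and 98.0 CPM, nearly all of it CD68, a lysosomal gene of macrophages that other cells also express, while PTPRC and CD14 averaged less than 0.4 CPM in each variant and CD3E was at 0. CD68 averaged 87.0 CPM in NCI-H1581 and 16.7 CPM in its resistant variant, and 21.3 CPM in NCI-H1703 and 49.1 CPM in its resistant variant. The 5 neuroendocrine genes summed to between 8.73 and 158 CPM. Nearly all of it was SYP in NCI-H1703 and NCI-H1703R, and SYP together with NCAM1 in NCI-H1581 and NCI-H1581R. NCAM1 (79.9 CPM) averaged more than SYP (68.7 CPM) in NCI-H1581. CHGA averaged 0.166 CPM in NCI-H1581 and 3.29 CPM in NCI-H1581R, and INSM1 was at 0 in every variant. What part CD68, the mesenchymal genes or the mitochondrial share had in the results below was not tested. FGFR1, which encodes a target of this pan-FGFR inhibitor, fell in NCI-H1581R by 2.59 on the log2 scale (adjusted p = 0.000629) and in NCI-H1703R by 0.51 (adjusted p = 0.0320).

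The plot of levels by library shows the pattern that the tests describe. The EGR genes were high in NCI-H1581 and low in NCI-H1581R, and the opposite held in the other line. The ETS genes dropped in NCI-H1703R. In NCI-H1581R they had no call by edgeR, although ETV5 lay lower in both resistant libraries than in either sensitive one.

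**Figure D2:**
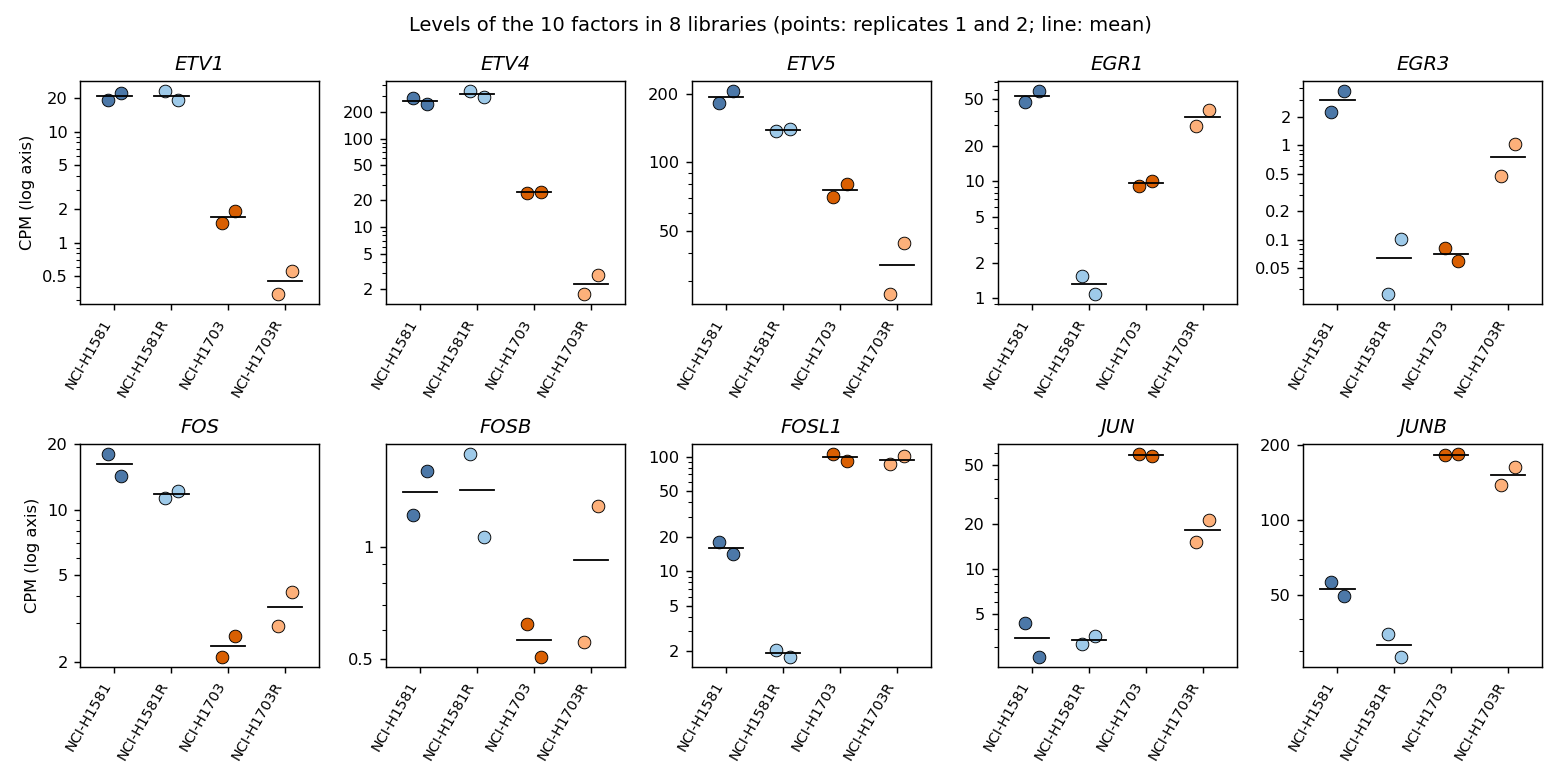
Level of each of the 10 genes in CPM on a log axis, with 2 points per variant for replicates 1 and 2 and a line at their mean. EGR1 lies between 47.7 and 58.7 in NCI-H1581 and at 1.57 and 1.09 in NCI-H1581R, and between 9.19 and 10.0 in NCI-H1703 and at 29.6 and 40.8 in NCI-H1703R.

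Resistance in NCI-H1581 was compared first. Of the 10 members, 4 fell at an adjusted p under 0.1 and 0 rose, with edgeR's quasi-likelihood test and Benjamini-Hochberg adjustment over all genes, where 15.1% of all genes tested were called in either direction, 7.63% as higher and 7.44% as lower. DESeq2 called 5 as lower and 0 as higher, and at an unadjusted p under 0.05 edgeR had 5. The members that fell were EGR1, EGR3, FOSL1 and JUNB. The median log2 fold change of the members was -0.46, against 0.04 over all genes tested.

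EGR1, a zinc-finger factor that many growth signals induce, was at 47.7 and 58.7 CPM in NCI-H1581 (replicates 1 and 2) and at 1.57 and 1.09 CPM in NCI-H1581R. Both resistant libraries lay far under both sensitive ones. EGR1 fell by 5.32 ± 0.28 on the log2 scale (SE, n = 2 per variant), a 39.8-fold difference, with an adjusted p of 0.000127 by edgeR. EGR3, a relative that EGR1-type signals also induce, had 75 and 150 counts in NCI-H1581 and 1 and 4 in NCI-H1581R. The summed counts, scaled to depth, were 47.0-fold lower in NCI-H1581R, with an exact binomial 95% interval from 19.8-fold to 146-fold that covers counting error only, and edgeR gave an adjusted p of 0.00392. EGR1 and EGR3 thus both fell, from levels of different order. In RNA of whole cultures, fewer cells that express a gene and less of its RNA per cell cannot be told apart.

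FOSL1, the AP-1 subunit FRA1 that accumulates under lasting ERK activity, was at 17.9 and 14.2 CPM in NCI-H1581 and at 2.05 and 1.80 CPM in NCI-H1581R. The variants did not overlap, and the level fell by 3.05 ± 0.28 on the log2 scale, or 8.26-fold (adjusted p = 0.00107). FOS, the classic immediate early partner of JUN, was at 18.1 and 14.2 CPM in NCI-H1581 and at 11.3 and 12.2 CPM in NCI-H1581R. Its libraries did not overlap either, but the difference of -0.44 ± 0.22 on the log2 scale missed the threshold (adjusted p = 0.278). FOSB, a less abundant relative, was at 1.22 and 1.60 CPM in NCI-H1581 and at 1.78 and 1.07 CPM in NCI-H1581R, so its variants overlapped.

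JUNB, an AP-1 subunit that often opposes JUN, was at 56.6 and 49.8 CPM in NCI-H1581 and at 34.9 and 28.4 CPM in NCI-H1581R. It fell 1.67-fold, by 0.74 ± 0.18 on the log2 scale (adjusted p = 0.0545), and this call was lost without NCI-H1581 replicate 1 (adjusted p = 0.366) or replicate 2 (adjusted p = 0.262). JUN was at 4.36 and 2.60 CPM in NCI-H1581 and at 3.16 and 3.56 CPM in NCI-H1581R. The resistant values of JUN lay within the sensitive ones, and the difference was -0.02 ± 0.36 on the log2 scale (adjusted p = 1).

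The ETS genes had no call in this line. ETV4, the most abundant of them, was at 291 and 247 CPM in NCI-H1581 and at 344 and 299.6 CPM in NCI-H1581R. Both resistant libraries lay above both sensitive ones, by 0.27 ± 0.18 on the log2 scale (adjusted p = 0.420). ETV5 was at 184 and 206 CPM in NCI-H1581 and at 137 and 140.2 CPM in NCI-H1581R, and its difference of -0.48 ± 0.16 had an adjusted p of 0.131 by edgeR. It was called as lower by DESeq2 (adjusted p = 0.0288), with at least 10 counts required in every library (adjusted p = 0.0923), and without NCI-H1581R replicate 1 (adjusted p = 0.0543) or replicate 2 (adjusted p = 0.0491). ETV1 was at 19.3 and 22.4 CPM in NCI-H1581 and at 23.2 and 19.2 CPM in NCI-H1581R, and these ranges overlapped. Over all genes tested, 50.6% had variants that did not overlap in this line, and 7 of the 10 members did not: ETV4 lay higher, and ETV5, EGR1, EGR3, FOS, FOSL1 and JUNB lay lower in NCI-H1581R.

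Resistance in NCI-H1703 gave another set of changes. Of the 10 members, 6 were called, where 14.7% of all genes tested were called in either direction, 7.06% as higher and 7.67% as lower. ETV1, ETV4, ETV5 and JUN fell, and EGR1 and EGR3 rose. The median log2 fold change was -0.14 for the members and 0.00 for all genes tested, and the median of its size without sign was 1.36 for the members and 0.29 for all genes.

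ETV4 was at 24.0 and 25.2 CPM in NCI-H1703 and at 1.75 and 2.82 CPM in NCI-H1703R. This 10.5-fold fall (-3.39 ± 0.21 on the log2 scale, adjusted p = 0.00134) was the only call among the members in this line that held whichever library was left out. ETV5 was at 70.7 and 80.0 CPM in NCI-H1703 and at 26.3 and 44 CPM in NCI-H1703R, and it fell 2.10-fold (log2 fold change -1.07 ± 0.23, adjusted p = 0.0463). ETV1, a PEA3 factor best known for its fusions in prostate cancer, had 55 and 65 counts in NCI-H1703 and 13 and 21 in NCI-H1703R, or 1.49 and 1.94 against 0.344 and 0.554 CPM. Its log2 fold change was -1.89 ± 0.47 (adjusted p = 0.0693). All 3 PEA3 genes thus lay lower in both resistant libraries than in either sensitive one. Between these variants 51.3% of all genes tested did not overlap, in either direction.

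EGR1 was at 9.19 and 10.0 CPM in NCI-H1703 and at 29.6 and 40.8 CPM in NCI-H1703R, a 3.74-fold rise (1.90 ± 0.19 on the log2 scale, adjusted p = 0.00444). EGR3 had 3 and 2 counts in NCI-H1703, at or under the floor, and 18 and 39 in NCI-H1703R. The ratio of the summed counts was 10.6, with an exact binomial 95% interval from 4.29 to 33.9, and the adjusted p by edgeR was 0.0557. The EGR genes thus moved against the PEA3 genes in the same libraries.

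JUN was at 59.4 and 57.4 CPM in NCI-H1703 and at 15.3 and 21.2 CPM in NCI-H1703R. It fell 3.13-fold, by 1.65 ± 0.16 on the log2 scale (adjusted p = 0.00415). JUNB was at 181 and 184 CPM in NCI-H1703 and at 139 and 163 CPM in NCI-H1703R, a difference of -0.24 ± 0.10 on the log2 scale (adjusted p = 0.224). With the replicate number as a block, JUNB was called as lower (adjusted p = 0.0186), the only member whose call in this line changed with the block.

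The FOS family had no call in this line. FOSL1 was at 105.9 and 91.0 CPM in NCI-H1703 and at 85.7 and 101.6 CPM in NCI-H1703R, so the variants overlapped at a high level, with a log2 fold change of -0.04 ± 0.12. FOS was at 2.11 and 2.63 CPM in NCI-H1703 and at 2.91 and 4.20 CPM in NCI-H1703R, higher in both resistant libraries by 0.62 ± 0.31 on the log2 scale (adjusted p = 0.294). FOSB was at 0.622 and 0.508 CPM in NCI-H1703 and at 0.555 and 1.29 CPM in NCI-H1703R, which overlapped. Over all genes tested, 51.3% had variants that did not overlap in this line, against 8 of the 10 members.

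With 2 replicates per variant these tests left 2 residual degrees of freedom, and the calls in NCI-H1703 rested on both sensitive libraries. Without NCI-H1703 replicate 1 or without replicate 2, ETV4 was the 1 member called, while the numbers of genes called in all were 293 and 274. The adjusted p without either of these libraries ranged from 0.106 to 0.124 for JUN and EGR1 and from 0.230 to 0.320 for ETV1, ETV5 and EGR3. The call of ETV1 was also lost without NCI-H1703R replicate 1 (adjusted p = 0.228) or replicate 2 (adjusted p = 0.136), and that of EGR3 without NCI-H1703R replicate 2 (adjusted p = 0.147).

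The members also varied together between the replicates of NCI-H1703R. All 10 members had a higher CPM in replicate 2 than in replicate 1 of NCI-H1703R, with ratios from 1.18 to 2.33 and a median of 1.53, while 48.4% of all genes tested did. In NCI-H1581, NCI-H1581R and NCI-H1703 the number of members higher in replicate 2 was 5, 4 and 6. The replicates were separate harvests, and what differed between them was not tested.

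Whether resistance changed a gene differently in each line was tested as an interaction over all 8 libraries. It was called for 6 of the 10 members, 3 higher and 3 lower in NCI-H1703, where 15.4% of all genes tested were called, 6.93% as higher and 8.47% as lower. EGR1 had the smallest p of the members, with a change that was higher in NCI-H1703 by 7.20 ± 0.35 on the log2 scale (adjusted p = 1.51e-05). EGR3 (8.82 ± 1.16, adjusted p = 0.000794) and FOSL1 (2.98 ± 0.28, adjusted p = 0.000367) also had a higher change in NCI-H1703. ETV4 (-3.68 ± 0.28, adjusted p = 0.000131), ETV1 (-1.94 ± 0.48, adjusted p = 0.0366) and JUN (-1.65 ± 0.38, adjusted p = 0.0269) had a lower one. EGR1 and EGR3 fell in one line and rose in the other, whereas the other 4 were called in 1 line: FOSL1 in NCI-H1581, and ETV1, ETV4 and JUN in NCI-H1703.

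The 4 members without a called difference between the lines were ETV5 (-0.61 ± 0.30, adjusted p = 0.280), FOS (1.04 ± 0.37, adjusted p = 0.123), FOSB (0.70 ± 0.76, adjusted p = 0.675) and JUNB (0.47 ± 0.21, adjusted p = 0.220). For ETV5 and JUNB the log2 fold change was negative in both lines, and the call in 1 line for each does not show that the lines differ. FOS was called with DESeq2 (adjusted p = 0.0739), with at least 10 counts in every library (adjusted p = 0.0775) and with the replicate block within each line (adjusted p = 0.0992). The call of ETV1 was lost without NCI-H1703 replicate 2 (adjusted p = 0.160) or NCI-H1703R replicate 1 (adjusted p = 0.170). JUNB was called without NCI-H1581R replicate 1 (adjusted p = 0.0635) and ETV5 without NCI-H1703R replicate 2 (adjusted p = 0.0423).

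**Figure D3:**
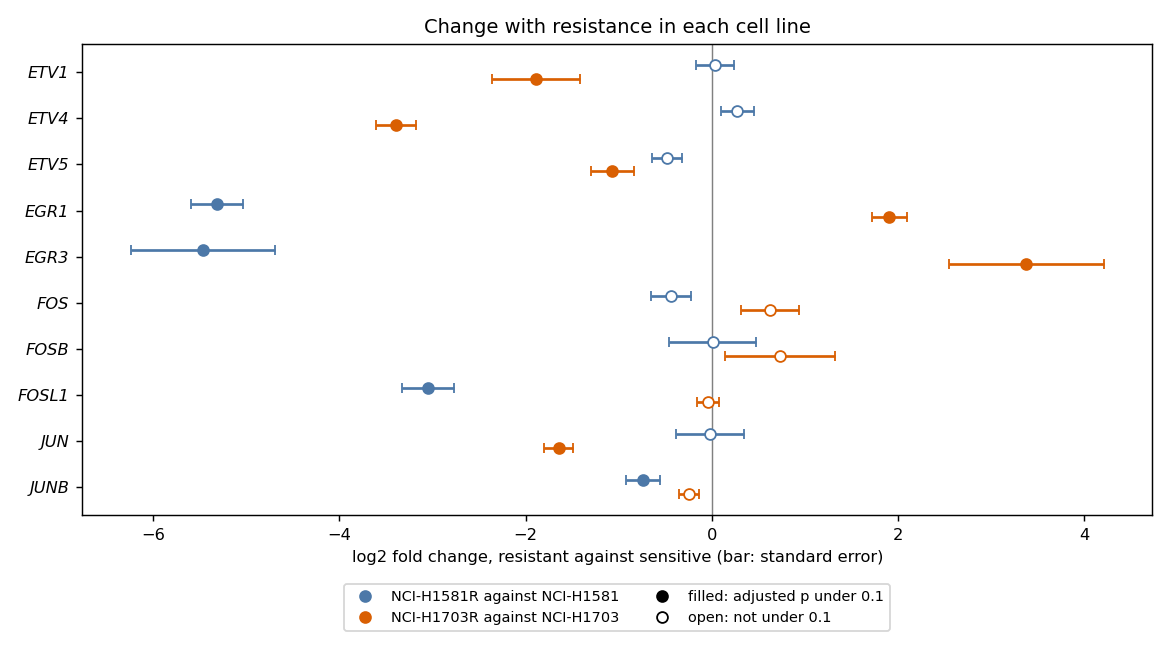
Log2 fold change of each member in the resistant against the sensitive variant of each cell line, with the standard error as a bar and filled points for an adjusted p under 0.1. EGR1 is at -5.32 in NCI-H1581R and at 1.90 in NCI-H1703R, and ETV4 is at 0.27 and -3.39.

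The sensitive lines differed in all 10 members, where 62.9% of all genes tested were called, 32.5% as higher in NCI-H1703 and 30.4% as lower. FOSL1 (2.62 ± 0.14 on the log2 scale), JUN (4.09 ± 0.19) and JUNB (1.78 ± 0.10) were higher in NCI-H1703, with adjusted p values of 4.15e-06, 2.30e-06 and 6.15e-06 by edgeR. JUN showed the largest rise, 17.1-fold, from 4.36 and 2.60 CPM to 59.4 and 57.4 CPM. The other 7 were lower in NCI-H1703: ETV1 by 12.3-fold, ETV4 by 10.9-fold, ETV5 by 2.59-fold, EGR1 by 5.56-fold, FOS by 6.81-fold, FOSB by 2.50-fold and EGR3 by 43.0-fold on its summed counts of 5 against 225 (exact binomial 95% interval from 18.1 to 134). No member overlapped between the sensitive lines, as for 76.7% of all genes tested. FOSB had the weakest call (adjusted p = 0.0544), which was lost with DESeq2 (adjusted p = 0.126) and without NCI-H1581 replicate 2 (adjusted p = 0.152), NCI-H1703 replicate 1 (adjusted p = 0.158) or NCI-H1703 replicate 2 (adjusted p = 0.189).

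The resistant lines differed in 9 of the 10 members, where 52.5% of all genes tested were called, 25.9% as higher in NCI-H1703R and 26.7% as lower. These libraries are those of the comparisons within each line, so the values are not independent of the changes given above. EGR1 and EGR3 stood in the opposite order to the sensitive lines: EGR1 was 27.1-fold higher in NCI-H1703R than in NCI-H1581R (4.76 ± 0.30 on the log2 scale, adjusted p = 0.000232), and EGR3 was 11.6-fold higher on its summed counts of 57 against 5 (exact binomial 95% interval from 4.69 to 37.1, adjusted p = 0.0202 by edgeR). FOSL1 was 49.8-fold, JUN 5.56-fold and JUNB 4.88-fold higher in NCI-H1703R. ETV4 was 137-fold lower in NCI-H1703R (-7.10 ± 0.29 on the log2 scale, adjusted p = 5.61e-05), ETV1 was 45.8-fold, ETV5 3.85-fold and FOS 3.24-fold lower. FOSB, at 1.78 and 1.07 CPM in NCI-H1581R and 0.555 and 1.29 CPM in NCI-H1703R, was the member that overlapped, against 71.3% of all genes that did not. The call of EGR3 was lost without NCI-H1581R replicate 1 (adjusted p = 0.113).

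Levels of different genes were compared per length of the canonical transcript, on the TPM scale and as means over 2 replicates. In NCI-H1581 the order from high to low was ETV4 (229 ± 11.0 TPM, SD), ETV5 (95.7 ± 14.2), JUNB (57.9 ± 1.36), EGR1 (34.1 ± 7.25), FOSL1 (18.8 ± 1.77), FOS (15.3 ± 1.54), ETV1 (6.48 ± 1.12), JUN (2.11 ± 0.622), EGR3 (1.34 ± 0.565) and FOSB (0.750 ± 0.193). Neighbours are said to be within their spread where they differ by less than the sum of their SDs, which here held for JUN with EGR3 and for EGR3 with FOSB. In NCI-H1581R the first 3 places stayed with ETV4 (304 ± 21.3 TPM), ETV5 (75.5 ± 13.9) and JUNB (38.0 ± 0.840), followed by FOS (12.5 ± 2.78) and ETV1 (7.21 ± 0.253), while EGR1 stood at 0.921 ± 0.0799 TPM and EGR3 last at 0.0337 ± 0.0314 TPM. In that variant EGR1 and FOSB (0.812 ± 0.156 TPM) lay within their spread of each other, as did FOSL1 (2.49 ± 0.198) and JUN (2.31 ± 0.575). JUNB led in NCI-H1703 (222 ± 1.76 TPM) and NCI-H1703R (186 ± 13.1 TPM), followed by FOSL1 (129 ± 13.9 and 124 ± 9.30 TPM). In NCI-H1703, ETV5 (41.0 ± 3.52 TPM) and JUN (39.9 ± 1.02 TPM) came next and lay within their spread, ahead of ETV4 (23.4 ± 0.776), EGR1 (6.80 ± 0.405), FOS (2.50 ± 0.387), ETV1 (0.590 ± 0.110), FOSB (0.333 ± 0.0477) and EGR3 (0.0347 ± 0.00746). In NCI-H1703R, EGR1 came next with 25.3 ± 4.59 TPM, within the spread of ETV5 (19.4 ± 6.06 TPM), which lay within that of JUN (12.6 ± 2.36 TPM). FOS (3.80 ± 0.807 TPM) and ETV4 (2.20 ± 0.639 TPM) followed there, and FOSB (0.548 ± 0.288), EGR3 (0.373 ± 0.179) and ETV1 (0.156 ± 0.0451) were last, each within the spread of the next. With the length of all exons in place of the canonical transcript, the levels of EGR1, EGR3, FOSL1, JUN and JUNB came out over 1.5 times higher, such as 392 TPM for JUNB in NCI-H1703 and 57.3 TPM for EGR1 in NCI-H1581, and JUN (63.3 TPM) stood above ETV5 (51.3 TPM) in NCI-H1703.

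The make-up of each family also differed between variants on this scale. Of the summed level of the 3 PEA3 genes, ETV4 gave 66.2% to 72.2% in NCI-H1581, 77.5% to 79.9% in NCI-H1581R, 35.1% to 36.9% in NCI-H1703 and 10.0% to 10.3% in NCI-H1703R, where ETV5 gave 89.0% to 89.3%. FOSL1 gave 53.8% to 54.1% of the summed level of the 3 FOS genes in NCI-H1581, 14.8% to 17.0% in NCI-H1581R and at least 96.2% in the libraries of the other line. FOS itself gave 76.3% to 81.3% in NCI-H1581R. JUN gave 14.9% to 15.5% of the summed level of JUN and JUNB in NCI-H1703 and 5.83% to 6.81% in NCI-H1703R. EGR1 gave at least 93.9% of the summed level of EGR1 and EGR3 in every library. The summed PEA3 level was 329 and 335 TPM in NCI-H1581, 361 and 411 in NCI-H1581R, 61.9 and 68.1 in NCI-H1703 and 17.0 and 26.5 in NCI-H1703R. These shares rest on the length chosen for each gene, which is the same in all libraries, so a share can be compared between libraries more safely than between genes.

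**Figure D4:**
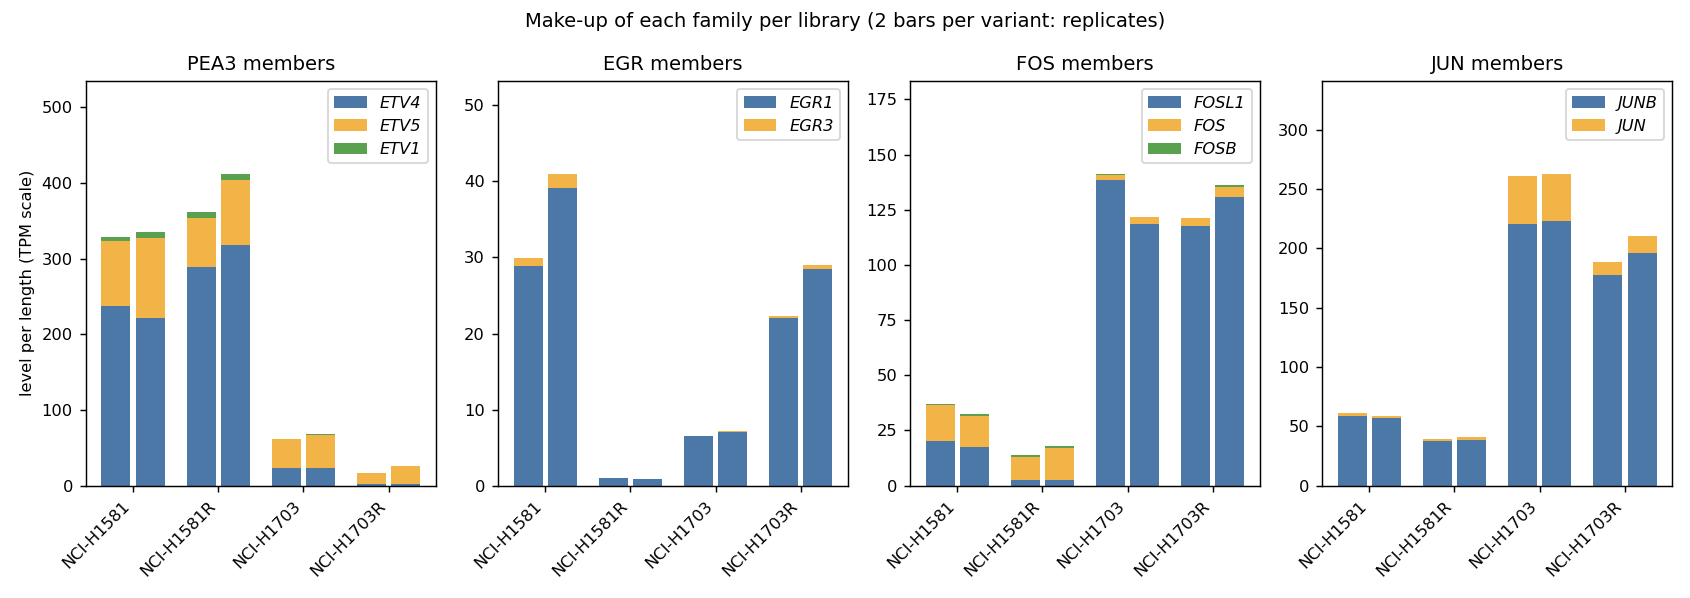
Summed level per transcript length (TPM scale) of the members of each family in the 8 libraries, with 2 bars per variant for the replicates and colours for the genes. ETV4 makes up most of the PEA3 level in NCI-H1581 and NCI-H1581R, and ETV5 gives 89.0% to 89.3% in NCI-H1703R.

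Genes with the most similar course over the 8 libraries were sought by the Euclidean distance of log2 CPM, each gene centred on its own mean, among 10788 genes that averaged 5 CPM or more. JUNB was nearest to CD9 (0.29) and SHC1 (0.33), and ETV5 to LINGO1 (0.59) and SOCS2 (0.64). FOS was nearest to SLC17A7 (0.63) and H2AC11 (0.64), FOSB to HSD17B10 (0.77) and CCDC167 (0.78), and ETV1 to RDH10 (0.79) and SALL2 (0.91). FOSL1 was nearest to LRCH1 (0.91) and CAMK2D (0.95), JUN to FLT4 (0.95) and MALT1 (0.97), and ETV4 to ZNF22 (1.13) and TMC6 (1.18). EGR1 was nearest to LRIG3 (2.16) and SERPINI1 (2.24), and EGR3 to C14orf132 (2.03) and LRIG3 (2.08). These distances are a description over 8 libraries of 4 variants, and they grow with a gene's own spread, whose SD was 2.21 on the log2 scale for EGR1, 2.14 for EGR3 and 0.67 for FOSB.

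Other genes of the response to ERK were counted in lists, to place the 10 factors. Among 19 tested genes of ERK output and feedback, such as the SPRY, SPRED and DUSP inhibitors of the cascade, 3 rose and 4 fell in NCI-H1581R, and 1 rose and 11 fell in NCI-H1703R. The median log2 fold change of this list was -0.32 in NCI-H1581R and -0.84 in NCI-H1703R, against 0.04 and 0.00 over all genes tested. The shares of all genes called were 7.63% as higher and 7.44% as lower in NCI-H1581R, and 7.06% and 7.67% in NCI-H1703R. In NCI-H1581R, SPRY2 (-2.70 ± 0.23, adjusted p = 0.000834) and DUSP6 (-1.75 ± 0.17, adjusted p = 0.00134) fell most among genes that averaged 5 CPM or more, and PHLDA1 (1.96 ± 0.25, adjusted p = 0.00439) and SPRED3 (0.67 ± 0.20, adjusted p = 0.0975) rose, and the other calls were EPHA4 as higher and SPRED1 and LIF as lower. In NCI-H1703R, SPRY1 (-5.51 ± 0.39, adjusted p = 0.00167) and SPRY4 (-2.91 ± 0.14, adjusted p = 0.000661) fell most among genes that averaged 5 CPM or more, SPRY2, with a lower level, fell by 3.62 ± 0.43 (adjusted p = 0.00820), and HBEGF, a ligand of EGFR, rose (0.73 ± 0.16, adjusted p = 0.0471). DUSP6 fell in NCI-H1703R too, by 2.33 ± 0.33 (adjusted p = 0.0137), and its interaction was not called (adjusted p = 0.337). The other calls in NCI-H1703R were DUSP5, SPRED1, SPRED2, SPRED3, PHLDA1, CCND1 and EPHA2 as lower. The interaction was called for 1 gene of the list as higher and 9 as lower in NCI-H1703, against 6.93% and 8.47% of all genes tested. Among the called genes that averaged 5 CPM or more, SPRY1 (-5.26 ± 0.39) and CCND1 (-3.03 ± 0.23) had the lowest and LIF (2.66 ± 0.54) the highest difference.

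Among 24 other immediate early genes, 2 rose and 5 fell in NCI-H1581R, and 1 rose and 11 fell in NCI-H1703R, with median log2 fold changes of -0.18 and -0.29 against 0.04 and 0.00 over all genes. Of all genes, 15.1% were called in NCI-H1581R and 14.7% in NCI-H1703R. ATF3, a stress-induced partner of JUN, rose in NCI-H1581R by 3.55 ± 0.27 on the log2 scale (adjusted p = 0.000526), as did CCN1, a matrix protein gene (3.30 ± 0.27, adjusted p = 0.000644). ARC (-3.75 ± 0.29, adjusted p = 0.000547) and ZFP36 (-2.76 ± 0.52, adjusted p = 0.0206) fell there, as did NR4A2, KLF10 and GADD45B. In NCI-H1703R, CCN1 (-1.42 ± 0.23, adjusted p = 0.0200) and the nuclear receptor gene NR4A1 (-1.17 ± 0.14, adjusted p = 0.00898) fell most. The interaction was called for 5 genes of this list as higher and 7 as lower in NCI-H1703, where it was called for 15.4% of all genes. The gene of this list that rose in NCI-H1703R, where EGR1 and EGR3 rose too, was their relative EGR4, named here after its values were seen. EGR4 was at 0.487 and 0.568 CPM in NCI-H1703 and at 1.93 and 2.98 CPM in NCI-H1703R (2.25 ± 0.46 on the log2 scale, adjusted p = 0.0398), and its change was higher in NCI-H1703 than in NCI-H1581 by 4.13 ± 0.87 (adjusted p = 0.0197). EGR2, the remaining member of that family, had 3 and 2 counts in NCI-H1703 and 8 and 16 in NCI-H1703R and was not called.

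Of 14 tested relatives of the 3 families, 1 rose and 3 fell in each line, with median log2 fold changes of -0.29 in NCI-H1581R and 0.02 in NCI-H1703R, and the shares of all genes called were 15.1% and 14.7%. The genes that rose were ATF3 and EGR4, which are also on the list above. FOSL2, the other FRA gene, fell in NCI-H1581R (-0.96 ± 0.20, adjusted p = 0.0272) and in NCI-H1703R (-1.28 ± 0.11, adjusted p = 0.00304), MAFF fell in NCI-H1703R, and BATF3 fell in both lines, by 1.77 ± 0.27 in NCI-H1581R (adjusted p = 0.00945) and by 0.69 ± 0.15 in NCI-H1703R (adjusted p = 0.0430). BATF2 fell in NCI-H1581R (-1.86 ± 0.28, adjusted p = 0.00850). Of 23 regulators of the members, 3 rose and 2 fell in NCI-H1581R, and 2 rose and 4 fell in NCI-H1703R, beside the same 15.1% and 14.7% of all genes, and with median log2 fold changes of -0.13 and -0.16. RPS6KA3, the ERK-activated kinase RSK2, rose in NCI-H1581R by 3.58 ± 0.22 (adjusted p = 0.000249), and TRIB1, an adaptor of the COP1 ubiquitin ligase that degrades ETS and JUN proteins, fell in NCI-H1581R (-2.50 ± 0.18, adjusted p = 0.000401) and in NCI-H1703R (-1.17 ± 0.25, adjusted p = 0.0448). ELK1, the ternary complex factor, rose in NCI-H1703R (1.06 ± 0.10, adjusted p = 0.00350), as did COP1 (0.35 ± 0.10, adjusted p = 0.0884). The CIC partners ATXN1L in NCI-H1581R (-0.56 ± 0.16, adjusted p = 0.0850) and ATXN1 in NCI-H1703R (-1.10 ± 0.25, adjusted p = 0.0530) fell. The other calls were MAPK9 (0.71 ± 0.18, adjusted p = 0.0595) and MRTFA as higher in NCI-H1581R, and ELK3 and ERF as lower in NCI-H1703R.

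Of 17 tested genes known as targets of AP-1 or PEA3 factors, 2 rose and 4 fell in NCI-H1581R, and 3 rose and 4 fell in NCI-H1703R, with median log2 fold changes of -0.38 and -0.23. The shares of all genes called, 15.1% in NCI-H1581R and 14.7% in NCI-H1703R, apply to these and to the heat shock genes. TIMP1, an inhibitor of matrix proteases, fell by 9.94 ± 0.38 in NCI-H1581R (adjusted p = 4.16e-05), and the protease gene MMP2 fell by 4.50 ± 0.20 (adjusted p = 7.64e-05). TIMP1 had 6630 and 6846 counts in NCI-H1581 and 12 and 2 in NCI-H1581R, near the floor, so the size of its fall is uncertain. In NCI-H1703R the urokinase receptor gene PLAUR fell (-1.11 ± 0.16, adjusted p = 0.0138), while TIMP1 (0.41 ± 0.11, adjusted p = 0.0880) rose. Other calls were SPP1 and PLAU as higher and PLAUR and NAB1 as lower in NCI-H1581R, and NAB2, which encodes a corepressor of EGR factors, as higher and MMP1, MMP9 and MMP10 as lower in NCI-H1703R. Among 8 tested genes of heat shock, which can move with the handling of cells, 1 fell in NCI-H1581R (HSPB1, -1.04 ± 0.18, adjusted p = 0.0155), and 1 rose (BAG3, 0.33 ± 0.09, adjusted p = 0.0800) and 1 fell in NCI-H1703R. The latter was HSPA1B, with 27 and 16 counts in NCI-H1703 and 0 in both NCI-H1703R libraries, whose reads are hard to tell from those of the near-identical HSPA1A.

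**Figure D5:**
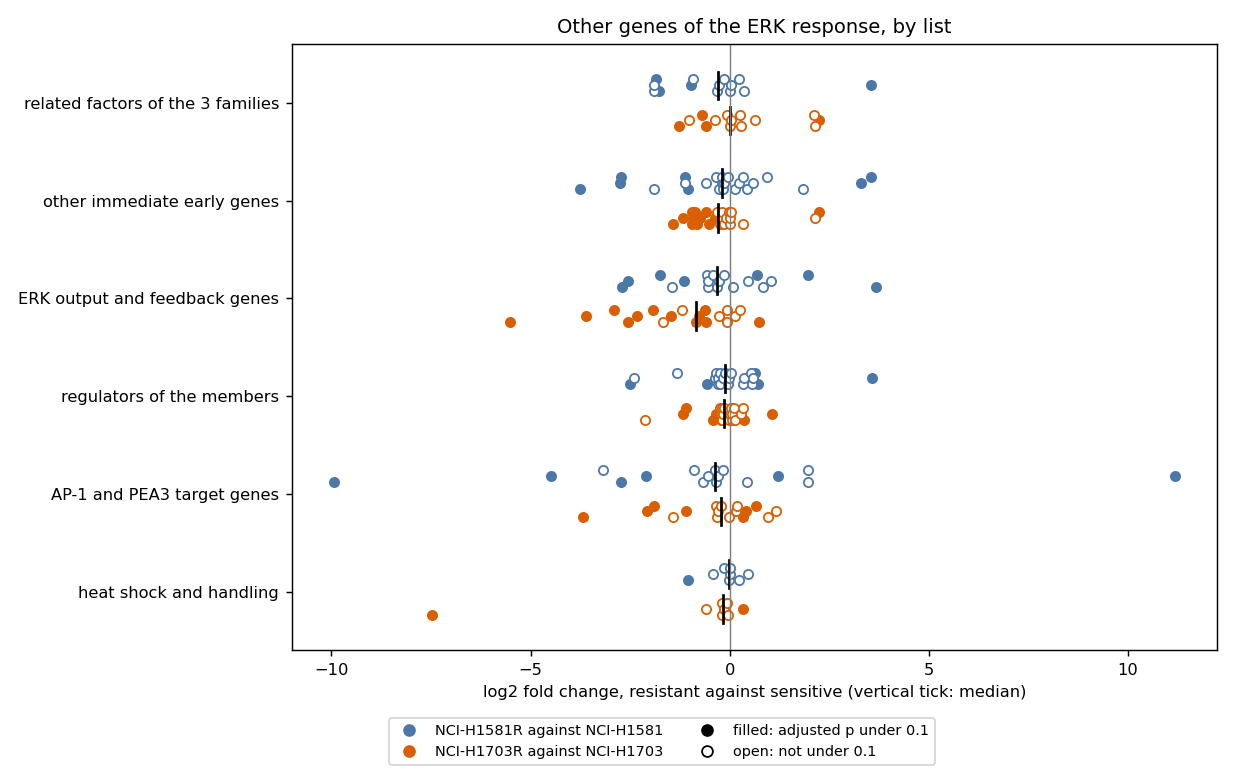
Log2 fold change of each tested gene of 6 lists in the resistant against the sensitive variant of each line, with filled points for an adjusted p under 0.1 and a tick at the median. The ERK output and feedback genes have medians of -0.32 in NCI-H1581R and -0.84 in NCI-H1703R, with 11 of 19 called as lower in NCI-H1703R.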

How the data were processed

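RNA of NCI-H1581, NCI-H1581R, NCI-H1703 and NCI-H1703R was measured in 2 replicates each. The authors trimmed reads with cutadapt, quantified them with Salmon against GRCh38 (hg38) and used tximport to obtain gene values. What they deposited are estimated counts, whole and not normalised, for each gene. Tool versions, the annotation, the tximport option and strandedness are not given in the sources used here. Of 37441 Ensembl identifiers, 34495 had a symbol in GENCODE v44, and 2946 had none. Totals ran from 33800389 to 40031710 counts per library.

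Genes whose 8 libraries summed to 10 counts or more were tested with edgeR 4.0.16 in R 4.3.3 (TMM normalisation, quasi-likelihood test, two-sided), on the 4 libraries of each comparison, or on all 8 for the interaction. A gene was called at an adjusted p (Benjamini-Hochberg, all genes) under 0.1, and the standard error was the log2 fold change divided by the square root of F. The members and lists were chosen with earlier results of these data known. All members were named. From each list, up to 2 genes that rose most and 2 that fell most among those called with a mean of at least 5 CPM were named. Other called list genes are outside this rule and were named after their values were seen. Some list genes are not reported here by name. The promoters were searched in a RefSeq table of GRCh38.p14.

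The labels' growth protocol has the whole procedure repeated for the second replicate, so same-numbered replicates were taken as paired within a line. The reported tests did not use this pairing, and the fit with the replicate block was an alternative. Their replicate differences correlated across 11174 genes with a Pearson r of 0.150 for NCI-H1581 with NCI-H1581R and 0.230 for NCI-H1703 with NCI-H1703R, and with r from -0.338 to -0.049 between the lines. No replicate was a copy of another (24.6 to 103 chi-square units per degree of freedom). p-values rest on the spread between these 2 harvests. For each gene, edgeR's quasi-likelihood fit moderates this spread with that of the other genes. The alternatives were DESeq2 1.42.0, RLE normalisation, other filters, the replicate block, 1 fit of all 8 libraries together, an adjusted p of 0.05, all-exon lengths and leaving out each library, where the lone library of a variant is assumed to vary like the others. Legacy quasi-dispersions and a crossed block were added after seeing the data.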

Additional observations from a re-analysis of the deposited data

Results flagged for a closer look

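The results given here differed between the cell lines in the change with resistance, by an interaction tested with edgeR in the fit of all 8 libraries. They cover the called members, the called list genes picked by the naming rule, and EGR4. Other list genes with a called interaction are not given here. The interaction was called for 15.4% of all genes tested. Each value is the log2 fold change in NCI-H1703 minus that in NCI-H1581, with its standard error.

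Among the 10 factors, the change was higher in NCI-H1703 for EGR1 (7.20 ± 0.35, adjusted p = 1.51e-05), EGR3 (8.82 ± 1.16, adjusted p = 0.000794) and FOSL1 (2.98 ± 0.28, adjusted p = 0.000367). It was lower for ETV1 (-1.94 ± 0.48, adjusted p = 0.0366), ETV4 (-3.68 ± 0.28, adjusted p = 0.000131) and JUN (-1.65 ± 0.38, adjusted p = 0.0269). For EGR1 and EGR3 all 4 libraries of each line showed the opposite directions, with NCI-H1581R under NCI-H1581 and NCI-H1703R over NCI-H1703. Of all genes tested, 50.6% had variants that did not overlap in NCI-H1581 and 51.3% in NCI-H1703. EGR3 had only 3 and 2 counts in NCI-H1703.

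Among their relatives and the other immediate early genes, the change was higher for BATF2 (2.47 ± 0.48, adjusted p = 0.0139), BATF3 (1.06 ± 0.32, adjusted p = 0.0767), EGR4 (4.13 ± 0.87, adjusted p = 0.0197), NR4A2 (2.69 ± 0.50, adjusted p = 0.0115), ZFP36 (2.54 ± 0.52, adjusted p = 0.0175) and ARC (2.90 ± 0.40, adjusted p = 0.00271). It was lower for ATF3 (-3.55 ± 0.24, adjusted p = 8.31e-05), MAFF (-0.84 ± 0.22, adjusted p = 0.0480), NR4A1 (-1.51 ± 0.28, adjusted p = 0.0113) and CCN1 (-4.74 ± 0.38, adjusted p = 0.000186).

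Among the genes of ERK output and feedback, SPRY1 (-5.26 ± 0.39, adjusted p = 0.000124), SPRY4 (-2.61 ± 0.21, adjusted p = 0.000183), SPRED3 (-2.17 ± 0.39, adjusted p = 0.0103), PHLDA1 (-2.82 ± 0.32, adjusted p = 0.00108) and CCND1 (-3.03 ± 0.23, adjusted p = 0.000129) had a lower change in NCI-H1703, and LIF (2.66 ± 0.54, adjusted p = 0.0165) had a higher one.

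Among the regulators, ELK1 (1.33 ± 0.24, adjusted p = 0.0107) and TRIB1 (1.31 ± 0.28, adjusted p = 0.0219) had a higher change, and ERF (-0.82 ± 0.18, adjusted p = 0.0251), MAPK9 (-0.68 ± 0.21, adjusted p = 0.0867) and RPS6KA3 (-3.28 ± 0.25, adjusted p = 0.000129) a lower one.

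Among the AP-1 or PEA3 target genes and the heat shock genes, MMP2 (4.25 ± 0.73, adjusted p = 0.00859), PLAUR (1.60 ± 0.30, adjusted p = 0.0115), TIMP1 (10.34 ± 0.38, adjusted p = 6.28e-06) and HSPB1 (0.96 ± 0.22, adjusted p = 0.0292) had a higher change in NCI-H1703. The size of the TIMP1 difference is uncertain, since this gene had 12 and 2 counts in NCI-H1581R.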

How the results depend on the processing

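The tests left 2 residual degrees of freedom in a comparison of variants, EGR3 had only 1 to 4 counts per library in NCI-H1581R and NCI-H1703, and the cause of each change below was not tested. The number of members called stayed within 1.5 times its value in each of the 40 alternatives that kept all libraries. Requiring 10 counts in every library left EGR3 untested, and an adjusted p of 0.05 removed JUNB in NCI-H1581R, ETV1 and EGR3 in NCI-H1703R and FOSB between the sensitive lines. Leaving out each library gave 3 to 5 members in NCI-H1581R against NCI-H1581, 1 to 5 in NCI-H1703R against NCI-H1703, 9 to 10 between the sensitive and 8 to 9 between the resistant lines, and 5 to 7 in the interaction.

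Genes called in NCI-H1581R against NCI-H1581 numbered 4539 in the single fit of all 8 libraries, 1793 at an adjusted p under 0.05 and 1128 to 5185 when leaving out each library. In NCI-H1703R against NCI-H1703 they numbered 6356 with the replicate block, against 2683 without it, 1730 in the single fit, 1640 at 0.05 and 274 to 1686 when leaving out each library. When leaving out each library they ranged from 9603 to 10969 between the sensitive lines, from 6120 to 10361 between the resistant lines and from 1571 to 4141 in the interaction.

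The replicate block changed the call of JUNB in NCI-H1703R against NCI-H1703 and of FOS in the interaction, and no other member's call. Between the lines same-numbered replicates share only a number: the block gave 11409 genes for the sensitive and 7638 for the resistant lines, and a crossed block gave 11063 for the latter.

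FOSB in NCI-H1581R against NCI-H1581, with a log2 fold change of 0.0058, turned to -0.0024 with DESeq2, -0.018 with RLE, -0.0068 with at least 10 counts in every library, -0.0048 with the block and -0.0036 in the single fit. When leaving out each library, it ranged from -0.40 to 0.31, ETV1 from -0.11 to 0.14 and JUN from -0.37 to 0.36 in that comparison. FOSB ranged from -0.0038 to 1.22 and FOSL1 from -0.17 to 0.083 in NCI-H1703R against NCI-H1703, and FOSB from -0.029 to 1.19 in the interaction. None of these was called. The levels per length moved beyond 1 SD in 31 of 40 cases with all-exon lengths, and by over 1.5 times for EGR1, EGR3, FOSL1, JUN and JUNB in every variant.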
